A study of Mus musculus with 87 samples.

Results

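The genes described here are 9 that mark resting, or homeostatic, microglia: Csf1r, Siglech, P2ry12, Cx3cr1, C1qa, C1qb, Tmem119, Dock8 and Inpp5d. They were taken by symbol as 9 of the 48526 genes in the counts of sorted nuclei and 9 of the 48531 genes in the counts of single nuclei, and each symbol had a single entry in the plate counts. The mice were C57BL/6J wildtype adults of both sexes, and the ventral midbrain received either 40 ng of IFN-γ in 400 nL of saline or the same volume of saline alone. Nuclei were sorted with an antibody to NeuN, a protein of neuronal nuclei, and 84 wells were sequenced. The fractions were NeuN- (glia and other cells) and NeuN+ (nuclei sorted as neurons). At each of 4 times (6, 24, 48 and 72 h) a fraction held 6 IFN-γ wells, beside 6 saline wells at 24 h and 4 at every other time. Single nuclei came from 1 saline mouse and 2 IFN-γ mice at 48 h.

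Microglia are the resident macrophages of the brain, and in the undisturbed tissue they hold a characteristic set of surface receptors that follow signals from neurons and from the extracellular space. IFN-γ, a cytokine of T cells and natural killer cells, acts on genes with a gamma-activated site (GAS) and through interferon regulatory factors on a later set of genes, and it activates macrophages. Survival of microglia depends on signalling through the receptor that Csf1r encodes, and their identity depends on the transcription factor PU.1, which binds ETS motifs.

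In the deposited labels every well is given as NeuN+, so the fraction was taken from the study's list of well barcodes. The counts followed that list, since 12 neuronal markers summed to 1119 counts in the 42 NeuN- wells and to 147876 in the 42 NeuN+ wells. NeuN- wells held 20962 to 301445 counts (median 110248) and NeuN+ wells 277113 to 1684374. Of 19 other microglial markers, 18 had counts in NeuN- wells, 6590 in all, and Itgam was at 0. Per the study's methods the wells of each treatment and time came from 2 to 3 mice, so some wells of a group share a mouse. No source used here says which, and p-values, standard errors and non-overlap over wells treat them as separate and are too small. In such bulk nuclei, fewer nuclei of a type and less RNA per nucleus cannot be told apart.

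The 9 genes fall into receptors, complement subunits, a surface protein and intracellular signalling proteins. Promoter sequence, the 250 bases before the RefSeq start site in GRCm38.p6, was matched for 6 of the 9 genes. Csf1r, C1qa and Tmem119 are named only. The promoters of Siglech and Dock8 are shown because these were the 2 genes that fell at 6 h, that of Inpp5d because it rose at 72 h, and that of P2ry12 as a receptor not called at either time in the same fits. Capitals mark a match to a searched motif.
Siglech (chr7:55767934-55768183, plus strand): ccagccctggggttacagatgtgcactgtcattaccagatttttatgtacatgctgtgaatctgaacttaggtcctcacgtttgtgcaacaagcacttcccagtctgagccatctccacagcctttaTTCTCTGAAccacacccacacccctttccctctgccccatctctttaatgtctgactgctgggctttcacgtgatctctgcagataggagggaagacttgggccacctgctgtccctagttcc
Dock8 (chr19:24999279-24999528, plus strand): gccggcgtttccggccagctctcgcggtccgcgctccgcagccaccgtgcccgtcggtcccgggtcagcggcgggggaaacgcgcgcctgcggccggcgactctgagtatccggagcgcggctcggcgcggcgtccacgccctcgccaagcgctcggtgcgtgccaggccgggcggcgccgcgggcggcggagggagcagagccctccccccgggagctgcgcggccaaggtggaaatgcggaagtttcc
Inpp5d (chr1:87620062-87620311, plus strand): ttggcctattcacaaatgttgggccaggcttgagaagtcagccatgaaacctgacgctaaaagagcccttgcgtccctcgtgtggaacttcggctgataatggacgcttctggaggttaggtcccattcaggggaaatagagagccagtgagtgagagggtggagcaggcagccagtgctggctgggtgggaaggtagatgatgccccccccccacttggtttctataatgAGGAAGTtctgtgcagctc
P2ry12 (chr3:59262986-59263235, minus strand): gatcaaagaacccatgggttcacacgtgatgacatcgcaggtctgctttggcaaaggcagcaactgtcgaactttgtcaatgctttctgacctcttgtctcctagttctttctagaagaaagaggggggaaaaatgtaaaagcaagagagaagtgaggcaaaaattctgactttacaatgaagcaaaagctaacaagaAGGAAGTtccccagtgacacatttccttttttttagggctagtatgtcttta
The motifs were searched on both strands. The GAS motif TTCNNNGAA matched in Siglech as TTCTCTGAA at bases -123 to -115 and in none of the other 5, and 7.18% of 27025 mouse promoters of the same length hold it. The ETS motif AGGAAGT matched in P2ry12 at -52 to -46, in C1qb at -53 to -47 on the minus strand and in Inpp5d at -19 to -13, against 7.80% of all promoters. The interferon regulatory factor motif, GAAA repeated after any 2 bases, matched in none of the 6, against 3.04% of all promoters. A match is a description of letters and not a bound site.

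The genes lie on 8 chromosomes, and neighbours matter for the counts of some of them. P2ry12 (chromosome 3, 59216272 to 59262871, minus strand) lies inside Med12l on the opposite strand, and Cx3cr1 (chromosome 9, 119901616 to 120069879, minus strand) overlaps 5 other coding genes in the annotation. The sources used here do not state whether strand was used in counting. P2ry12 had 0.749 counts per Med12l count in NeuN- wells and 0.0889 in NeuN+ wells. No such ratio was computed for Cx3cr1, and the annotation used here is later than the authors' own. With these overlaps and an unknown strand setting, P2ry12 and Cx3cr1 counts in neurons are uncertain, and their source was not tested. Siglech (chromosome 7), C1qa and C1qb (chromosome 4), Tmem119 (chromosome 5) and Inpp5d (chromosome 1) overlap no annotated gene. Dock8 (chromosome 19) overlaps a small nucleolar RNA alone, and Csf1r (chromosome 18) meets the end of Hmgxb3.

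All 9 genes were higher in NeuN- than in NeuN+ saline wells in the edgeR fit of all genes with a count. A total of 25.6% of genes were called in that comparison (8.29% higher in NeuN-), at a log2 limit of 0.5 and an adjusted p below 0.01. After a filter on low counts, 5 of the 9 genes were tested and all 5 were higher, beside 59.4% of genes called. The largest difference was that of Siglech, a sialic acid-binding receptor of microglia, at 5.57 ± 0.26 (log2, SE; edgeR adjusted p = 2.12e-26) with 18 wells in each fraction. Inpp5d, which encodes the lipid phosphatase SHIP1, differed by 4.61 and Dock8, which encodes an activator of the GTPase Cdc42, by 3.68. The smallest differences were those of Cx3cr1, the fractalkine receptor, at 2.33 and P2ry12, a purinergic receptor of microglial processes, at 1.65. Both are genes with overlapping neighbours. Without the filter Csf1r differed by 4.28 ± 0.33, Tmem119, a surface protein that marks microglia, by 3.92 ± 0.51, C1qb by 2.79 ± 0.56 and C1qa by 2.57 ± 0.58 in edgeR. The last pair encode chains of the first complement component.

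Counts of the 9 genes in NeuN- wells were low, which sets the precision of what follows. Over the 42 NeuN- wells P2ry12 had 487 counts, Dock8 441, Inpp5d 422, Cx3cr1 253, Siglech 251 and Csf1r 181, whereas C1qb had 31, Tmem119 23 and C1qa 12. A filter on low counts therefore left 0 of the 9 genes at 6 and 24 h, 2 at 48 h (P2ry12 and Dock8) and 4 at 72 h (those and Siglech and Inpp5d). The values of IFN-γ against saline below come from the same edgeR fit without that filter, in which all 9 genes were tested among 18463 to 19276 genes. Levels are in CPM, the counts of a gene in every 1000000 counts of a well.

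At 6 h Siglech and Dock8 fell in NeuN- wells. Siglech stood at 65.3, 66.8, 77.1 and 80.0 CPM in the 4 saline wells and at 0 in 5 of the 6 IFN-γ wells, with 4.85 CPM in the other. That is 33 counts against 1, a pooled ratio of 52.4 with a 95% counting interval of 8.78 to 2134. Dock8 stood at 77.1, 105, 120 and 152 CPM in saline and at 0 to 47.7 CPM (median 6.78) with IFN-γ, or 53 counts against 6. The highest of these IFN-γ wells is the shallowest of all NeuN- wells, with 20962 counts, and its value is a single count. No IFN-γ well reached the lowest saline well for either gene. In edgeR the log2 change was -4.88 ± 0.73 for Siglech (SE, adjusted p = 3.77e-09) and -3.61 ± 0.49 for Dock8 (adjusted p = 3.05e-11), and both were called in all 10 fits that left out a well. So 2 of the 9 genes were called lower, beside 0.682% of all genes called lower and 2.38% called either way.

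The other receptors were lower in all IFN-γ wells at 6 h than in any saline well, without passing the limits. Csf1r, which encodes the receptor for the growth factors CSF1 and IL-34, stood at 28.6, 36.3, 42.8 and 60.0 CPM in saline and at 0 to 18.6 CPM (median 10.5) with IFN-γ. P2ry12 stood at 70.0, 76.4, 94.3 and 120 CPM against 0 to 69.7 (median 46.8). Cx3cr1 stood at 42.8, 43.5, 47.7 and 80.0 CPM against 0 to 34.0 (median 25.2). The groups touched nowhere for these 3 genes, but the gap for P2ry12 was less than a single count. In edgeR the log2 values were -1.95 ± 0.63 for Csf1r (SE, adjusted p = 0.0405), -0.88 ± 0.36 for P2ry12 (adjusted p = 0.193) and -0.95 ± 0.47 for Cx3cr1 (adjusted p = 0.350). Of the 6 members with at least 20 counts at 6 h, 5 had IFN-γ wells that were all below the saline wells, beside 4.52% of genes with that many counts. Inpp5d overlapped, with 19.1, 77.1, 100 and 102 CPM in saline and 0 to 77.2 CPM (median 17.2) with IFN-γ, and had a log2 value of -1.53 ± 0.44 (edgeR, SE, adjusted p = 0.0129).

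**Figure D1:**
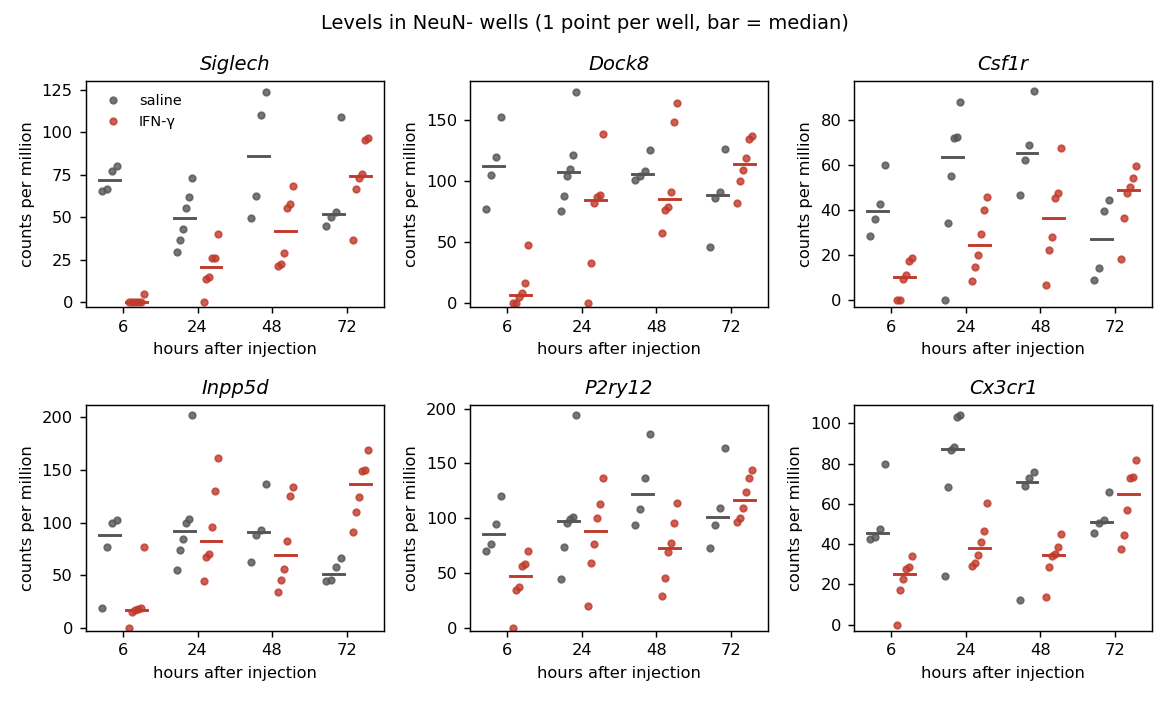
Levels of the 6 better counted genes in NeuN- wells, in CPM (vertical axis) at 6, 24, 48 and 72 h (horizontal axis); each point is a well, saline and IFN-γ in separate colours, with a bar at the median. At 6 h the IFN-γ wells of Siglech sat between 0 and 4.85 CPM and all saline wells at 65.3 CPM or above, and at 72 h the IFN-γ wells of Inpp5d sat above all saline wells.

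C1qa, C1qb and Tmem119 could not be compared at this depth. C1qa had 2 counts in saline and 2 in IFN-γ wells at 6 h, C1qb 4 and 7, and Tmem119 2 and 0, and at no time did any of the 3 exceed 7 counts in a group. Their groups overlapped at every time. Tmem119 at 24 h, with 4 counts in saline against 1, gave a ratio of saline to IFN-γ of 7.13 with a counting interval of 0.705 to 351.

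Samples at 6 h also differed in measures other than these genes. The 19 microglial markers summed to 1317 to 1422 CPM in saline and 820 to 958 CPM in IFN-γ wells, whereas the 9 genes summed to 344 to 550 and 47.7 to 203 CPM. Oligodendrocyte markers stood at 7895 to 8949 against 4484 to 5670 CPM and astrocyte markers at 936 to 1069 against 763 to 891 CPM. Y-linked genes stood at 286 to 363 CPM in saline and 0 to 95.4 CPM in IFN-γ wells, so the makeup by sex differed between the groups at 6 h and cannot be told apart from treatment. Saline wells of 48 h hold 0 to 49.2 CPM of Y-linked genes, and with these as controls in the fit without a filter, Siglech had a log2 change of -5.35 ± 0.67 (edgeR, SE, adjusted p = 1.95e-13) and Dock8 one of -3.60 ± 0.49 (adjusted p = 2.31e-11). Csf1r (-2.69, adjusted p = 4.53e-05), Inpp5d (-1.84, adjusted p = 0.000322) and P2ry12 (-1.41, adjusted p = 0.000595) then passed the limits in edgeR as well, so 5 of the 9 genes were called lower, beside 1.21% of all genes called lower. These controls differ from the IFN-γ wells in time. When library sizes were set by 41 microglial genes, Siglech had -4.46 (edgeR adjusted p = 3.12e-07) and Dock8 -3.11 (adjusted p = 2.65e-08), with the median of all genes at 0.49. Markers of T cells summed to 10 counts in saline and 6 in IFN-γ wells at 6 h, and Cd3d and Cd2 were at 0 in all NeuN- wells. Markers of border macrophages or monocytes summed to 30 and 10 counts, and Pf4 was at 0. Their part in the result was not tested.

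By 24 h the levels overlapped for every gene. Siglech ranged from 29.7 to 73.3 CPM (median 49.2) in saline and from 0 to 40.2 CPM (median 20.4) with IFN-γ, and Csf1r from 0 to 88.0 (median 63.6) and from 8.70 to 46.0 (median 24.7). Dock8 ranged from 75.4 to 173 CPM (median 107) in saline and from 0 to 138 (median 84.4) with IFN-γ. The medians were lower with IFN-γ, but the ranges crossed. In edgeR Siglech had a log2 value of -1.36 ± 0.48 (SE, adjusted p = 0.0694), Csf1r -1.07 ± 0.46 (adjusted p = 0.186), Cx3cr1 -0.82 ± 0.36 (adjusted p = 0.202), Dock8 -0.49 ± 0.30 (adjusted p = 0.445), Inpp5d -0.09 ± 0.30 (adjusted p = 0.889) and P2ry12 -0.02 ± 0.29 (adjusted p = 0.962). None of the 9 genes was called at 24 h by edgeR or DESeq2, beside 3.32% of all genes in edgeR, and 3 had an unadjusted p below 0.05 in both, beside 16.2% (edgeR) and 10.4% (DESeq2) of all genes. With library sizes set by the 41 microglial genes Siglech passed the limits at -1.81 (edgeR adjusted p = 0.00982). The makeup by sex differed at 24 h too, with Y-linked genes at 14.8 to 1289 CPM (median 221) in saline and 692 to 1178 CPM in IFN-γ wells, and cannot be told apart from treatment there either. With saline wells of 72 h as controls, at 908 to 1324 CPM of those genes, Siglech had -1.78 ± 0.46 (edgeR, SE, adjusted p = 0.00349), 1 of 9 genes called, beside 1.47% of all genes called lower.

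At 48 h none was called by edgeR or DESeq2, beside 0.303% of all genes in edgeR, and 4 (edgeR) or 2 (DESeq2) had an unadjusted p below 0.05, beside 6.66% and 3.16% of all genes. Siglech stood at 49.2, 62.4, 110 and 124 CPM in saline and at 21 to 68.3 CPM (median 42) with IFN-γ, and P2ry12 at 93.3, 108, 137 and 177 against 28.9 to 114 (median 73.1). In both genes the upper IFN-γ wells lay within the saline range. The edgeR log2 values were -1.17 ± 0.36 (adjusted p = 0.105) and -0.82 ± 0.29 (adjusted p = 0.305). Dock8, at 101, 104, 108 and 125 CPM in saline, ranged from 57.4 to 164 CPM (median 84.9) with IFN-γ.

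At 72 h Inpp5d rose in NeuN- wells. It stood at 44.6, 45.4, 57.5 and 66.1 CPM in saline and at 90.6 to 169 CPM (median 136) with IFN-γ, or 29 counts against 115. The lowest IFN-γ well exceeded the highest saline well, which was the case for 1.72% of genes with at least 20 counts. The log2 change was 1.32 ± 0.29 (edgeR, SE, adjusted p = 0.00241), 1 of 9 genes called, beside 0.203% of all genes called higher and 0.257% called either way. Among the genes left by the filter the change was 1.29 ± 0.28 (edgeR adjusted p = 0.00249), beside 0.754% of genes called higher, and the call was lost without saline replicate 2 (adjusted p = 0.0151). Without the filter it was lost in 5 of 10 fits, those without saline replicate 1 (adjusted p = 0.0158), 2 (0.0371) or 3 (0.0175) or IFN-γ replicate 1 (0.0226) or 6 (0.0154). It was also lost in DESeq2 (1.29, adjusted p = 0.0264), with saline wells of all times as controls (0.74, edgeR adjusted p = 0.0523) and in 1 fit of all 84 wells (edgeR adjusted p = 0.0129). The 19 microglial markers stood at 970 to 1153 CPM in saline and 1486 to 1960 CPM with IFN-γ at 72 h. With library sizes set by the 41 microglial genes Inpp5d was at 0.59 (edgeR adjusted p = 0.278), with the median of all genes at -0.59.

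Siglech and Dock8 were back within or near the saline range at 72 h. Siglech stood at 44.6, 50.3, 52.9 and 109 CPM in saline and 36.3 to 96.7 CPM (median 74.1) with IFN-γ, and Dock8 at 46.2, 86.3, 90.8 and 126 against 81.8 to 137 (median 114). Csf1r stood at 9.08, 14.4, 39.6 and 44.6 CPM against 18.3 to 59.5 (median 48.9). The groups overlapped in all 3 genes. The edgeR log2 values were 0.31 ± 0.33 (adjusted p = 0.712) for Siglech, 0.38 ± 0.27 (adjusted p = 0.642) for Dock8 and 0.65 ± 0.47 (adjusted p = 0.642) for Csf1r, and all 3 turned to -0.43, -0.35 and -0.05 with library sizes set by the 41 microglial genes. Over the 9 genes the median log2 value was -1.53 at 6 h, -0.49 at 24 h, -0.82 at 48 h and 0.29 at 72 h, beside -0.02, 0.17, 0.04 and 0.11 over all genes.

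The difference between times was tested itself, in a fit of all 42 NeuN- wells in which 4 of the 9 genes passed the filter. The change of Siglech at 6 h was lower than that at 24 h by a log2 difference of -3.44 ± 0.91 (edgeR, SE, adjusted p = 0.00444), at 48 h of -3.84 ± 0.84 (adjusted p = 0.000759) and at 72 h of -5.22 ± 0.78 (adjusted p = 5.16e-07). For Dock8 these differences were -3.02 ± 0.63 (edgeR adjusted p = 0.000242), -3.59 ± 0.62 (adjusted p = 1.93e-05) and -4.01 ± 0.61 (adjusted p = 7.64e-07). Inpp5d differed between 6 and 72 h, by -2.87 ± 0.58 (edgeR adjusted p = 0.00016), and P2ry12 differed at no time. The difference of Siglech between 6 and 24 h did not pass the limits in DESeq2 (-3.26, adjusted p = 0.0235), without the filter (-3.56, edgeR adjusted p = 0.0178) or with library sizes set by the 41 microglial genes (-2.78, edgeR adjusted p = 0.0179). The counts called lower were 2, 2 and 3 of 4 genes, beside 3.58%, 2.88% and 2.52% of all genes. IFN-γ wells of 24 h held 692 to 1178 CPM of Y-linked genes and those of 6 h 0 to 95.4 CPM, so the makeup by sex differed between these times as well.

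**Figure D2:**
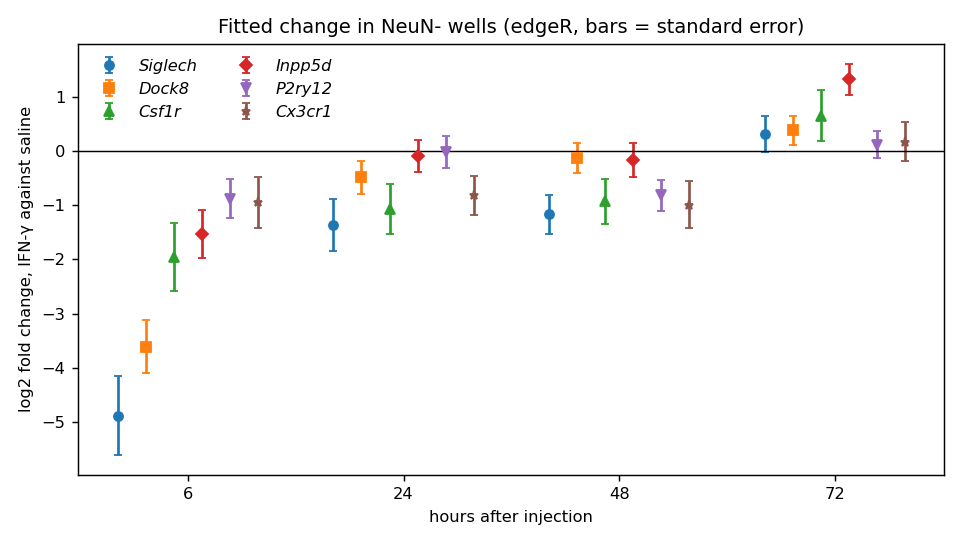
Log2 change with IFN-γ in NeuN- wells (vertical axis) of the 6 better counted genes at each time after injection (horizontal axis), from edgeR without a filter. Bars are standard errors, and the markers do not show which points passed the limits. The values of Siglech (-4.88) and Dock8 (-3.61) at 6 h lie lowest, and that of Inpp5d at 72 h (1.32) is the called value above 0.

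In NeuN+ wells the levels were low and none of the 9 genes was called at any time by edgeR or DESeq2, beside 0.722%, 1.14%, 0.157% and 0.428% of all genes at 6, 24, 48 and 72 h in edgeR. At an unadjusted p below 0.05 edgeR gave 2, 3, 6 and 1 of the 9 genes, beside 11.7%, 14.1%, 8.58% and 12.1% of all genes, and DESeq2 2, 3, 4 and 0, beside 7.77%, 8.91%, 3.03% and 6.16%. Siglech stood at 0 to 2.51 CPM (median 1.79) in saline and 2.88 to 5.53 CPM (median 4.28) with IFN-γ at 24 h, and at 1.59, 1.84, 2.77 and 2.90 against 3.07 to 5.99 (median 4.89) at 72 h. The IFN-γ wells lay above the saline wells at both times, which was the case for 2.47% and 3.54% of genes with at least 20 counts, but the edgeR log2 value at 24 h was 1.42 ± 0.56 (SE, adjusted p = 0.14). Inpp5d stood at 0.841, 1.99, 2.46 and 4.62 CPM against 6.08 to 10.3 (median 8.04) at 48 h, also without overlap (0.939% of genes), with 1.76 ± 0.52 (adjusted p = 0.0804). P2ry12 at 48 h had a small adjusted p in edgeR (0.000446) at a log2 value of 0.82 ± 0.17, below the limit of 1. Its wells overlapped, at 21.5, 27.9, 33.9 and 47.1 CPM in saline and 17.4 to 68.3 CPM (median 55.2) with IFN-γ. Csf1r had 3 counts in saline and 19 in IFN-γ wells at 48 h, a ratio of saline to IFN-γ of 0.260 with a counting interval of 0.0493 to 0.884. C1qa, C1qb and Tmem119 had at most 5 counts in a group. The oligodendrocyte gene Mbp also had counts in NeuN+ wells. Its pooled levels at 6, 24, 48 and 72 h were 71.1, 90.1, 81.4 and 90.6 CPM in saline. With IFN-γ they were 38.4, 62.8, 102 and 138 CPM, lower at the first 2 times and higher at the last 2. Whether the changes of the 9 genes in NeuN+ wells lie in neurons was not tested.

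The effect of IFN-γ differed between the fractions for 3 of the genes in the filtered edgeR fit, and 2 of these 4 calls were lost under another tool, filter or set of controls. The interaction, the effect in NeuN- minus that in NeuN+ wells, could be tested for 5 of the 9 genes at 6 h. It was -6.16 ± 1.53 for Siglech (log2, SE, edgeR adjusted p = 0.00567), which in NeuN+ wells had 1 count in saline and 5 with IFN-γ, and -2.75 ± 0.71 for Dock8 (adjusted p = 0.00796). Both were called lower, beside 0.938% of all genes. At 24 h it was -2.86 ± 0.67 for Siglech (edgeR adjusted p = 0.00196) and -1.64 ± 0.43 for Cx3cr1 (adjusted p = 0.00568), 2 of 6 genes, beside 1.97%. Cx3cr1 ranged from 24.2 to 104 CPM (median 87.4) in saline and 29.4 to 60.3 CPM (median 37.8) with IFN-γ in NeuN- wells, and from 7.72 to 17.6 (median 12.6) and 12.6 to 27.7 (median 22.2) in NeuN+ wells. At 48 h 0 of 6 genes were called in edgeR, with Siglech at -2.96 (adjusted p = 0.0382), 5 genes at an unadjusted p below 0.05 (11.9% of all genes) and 0.0803% of all genes called lower, and at 72 h 0 of 6, with 0 at an unadjusted p below 0.05 (11.6% of all genes) and 0.254% of all genes called lower. Without the filter P2ry12 was called at 48 h, at -1.65 (edgeR adjusted p = 0.00200), beside 0.0541% of all genes called lower.

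The call of Siglech at 6 h was lost without the filter (-6.09, edgeR adjusted p = 0.0253), and DESeq2 gave Siglech no adjusted p and called P2ry12 in its place (-1.48, adjusted p = 0.00911). That of Cx3cr1 at 24 h was lost without the filter (-1.55, edgeR adjusted p = 0.0137) and with saline wells of 72 h as controls (-0.78, edgeR adjusted p = 0.271), which are closer to the IFN-γ wells in Y-linked genes. With these controls Siglech at 24 h had -2.60 (edgeR adjusted p = 0.00726). With saline wells of 48 h as controls at 6 h, Siglech had -5.61 (edgeR adjusted p = 0.00914), Dock8 -3.58 (adjusted p = 0.000252) and P2ry12 -1.72 (adjusted p = 0.00207), 3 of 6 genes called, beside 3.57% of all genes.

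These differences between the fractions rested in part on single wells. At 6 h the call of Siglech was lost in 6 of 20 fits that left out a well, those without saline replicate 6 (edgeR adjusted p = 0.0149) or 8 (0.0162) or IFN-γ replicate 2 (0.0108), 4 (0.0136), 7 (0.0655) or 11 (0.0101). The call of Dock8 was lost in 10 of 20, without saline replicate 1, 3, 7 or 8 or IFN-γ replicate 2, 3, 5, 6, 8 or 10, with edgeR adjusted p up to 0.0289. That of Cx3cr1 at 24 h was lost in 9 of 24, without saline replicate 2, 5, 9 or 10 or IFN-γ replicate 1, 2, 4, 5 or 6, with adjusted p up to 0.0136. That of Siglech at 24 h held in 24 of 24. Of the differences between times, that of Siglech between 6 and 24 h was lost without IFN-γ replicate 4 of 6 h (edgeR adjusted p = 0.0146) or replicate 1 of 24 h (0.0164).

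Other microglial genes of a list of 41 moved unevenly at 6 h in NeuN- wells. Of 40 tested, 6 fell and 1 rose in edgeR, beside 0.682% of all genes called lower and 1.7% called higher. Their median was -0.64 beside -0.02 over all genes. The 4 that fell most were the sialic acid-binding receptor Cd33 at -5.44, Abi3 at -4.27, the lysophosphatidylserine receptor Gpr34 at -3.95 and Apbb1ip at -2.67. The gene that rose was Arhgap15 at 1.00. At 24 h 1 of 40 fell (Gpr34 at -5.21) and 3 rose, beside 1.07% and 2.24% of all genes. At 48 h 0 of 40 were called, beside 0.303% of all genes. At 72 h 4 rose, beside 0.203% of all genes called higher, among them the leukocyte phosphatase Ptprc (CD45) at 1.54 and the lysosomal protease Ctss at 1.69.

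Of 20 genes for ligands, transcription factors and partners of the 9 genes, 19 were tested at 6 h. Csf1, a ligand of the receptor that Csf1r encodes, rose by 1.72 (log2, edgeR adjusted p = 5.39e-05) and the transcription factor gene Mef2c fell by 1.52 (adjusted p = 0.000264). None was called at 24 h, 48 h or 72 h, beside 3.32%, 0.303% and 0.257% of all genes. Of 28 response and activation genes, 7 of 26 tested rose at 6 h and none fell, beside 1.7% of all genes called higher. Among them were Irf1 at 6.94, Cxcl9 at 6.86, Cxcl10 at 5.56 and Ccl2 at 3.13. At 24 h 5 of 25 rose, at 48 h 2 of 22, and at 72 h 2 rose, among them B2m at 4.19. All genes called higher were 2.24%, 0.244% and 0.203% at these times.

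In the 42 NeuN- wells, among 2551 genes, 4 of the 5 genes with levels most like the sum of the 9 genes were Apbb1ip and Pde3b (Pearson r of 0.86 each), Mef2c (0.83) and Ptn (0.83). The wells share treatment, time and depth. Over the 18 saline wells alone these 4 genes had r of 0.24, 0.38, 0.33 and -0.39, so the likeness did not hold within saline wells.

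Single nuclei showed where the 9 genes are found. The 3 mice gave 1016 (saline), 2574 and 1109 nuclei with 0 barcodes shared between them, and clustering without the 9 genes gave a microglia-like cluster of 134 nuclei, 31 from the saline mouse and 49 and 54 from the IFN-γ mice. Its leading genes by fold included the members Inpp5d (first) and Dock8, the markers Runx1 and Ptprc, and the antigen presentation genes Cd74 and H2-Aa. The microglial markers had the highest mean z-score among clusters, 5.09. Markers of border macrophages or monocytes came next, at 3.93. Its nuclei held a median of 2801, 3800 and 3909 UMIs (unique molecular identifiers, 1 for each captured RNA molecule) in the 3 mice. Over all mice Inpp5d had 2212 CPM there, Dock8 1363, C1qb 920, C1qa 851, P2ry12 836, Cx3cr1 740, Csf1r 674, Siglech 582 and Tmem119 97.6.

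Outside that cluster most of the 9 genes were near 0. In 1241 oligodendrocyte-like nuclei Siglech, Csf1r and Tmem119 had 0.207 CPM each, and in 3131 nuclei of the other clusters, mostly neurons, Siglech had 0.0903, Csf1r 0.741, Inpp5d 0.506 and Dock8 1.73 CPM. C1qa and C1qb had 4.96 and 8.27 CPM in oligodendrocyte-like and 6.07 CPM each in 193 astrocyte-like nuclei. P2ry12 was the exception, with 100, 98.4 and 88.5 CPM in the other clusters of the 3 mice and 36.4 CPM in astrocyte-like nuclei. Introns were counted in nuclei and P2ry12 lies inside Med12l, so these counts outside the microglia-like cluster are uncertain, as in NeuN+ wells. A UMI of P2ry12 was found in 71.9%, 65% and 71.2% of the other nuclei, against 90.3%, 75.5% and 66.7% of microglia-like ones, at medians of 16013 and 3416 UMIs. When every nucleus was thinned to 1500 UMIs the shares were 13.6%, 14.5% and 12.7% against 83.3%, 51.1% and 44.2%. Cx3cr1 had 16.1 to 17.4 CPM in each of the other 3 classes, a like level in unlike cells. In all 3 mice 8 of the 9 genes had their highest share of nuclei with a UMI in the microglia-like cluster. P2ry12 did not in the second IFN-γ mouse, and all 9 genes had it in every mouse after thinning.

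**Figure D3:**
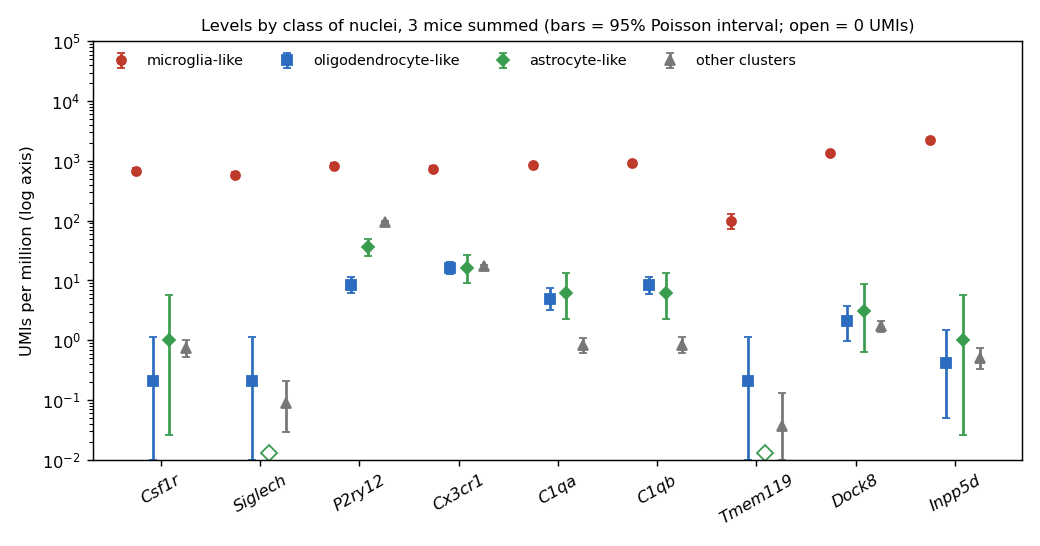
Levels of the 9 genes in microglia-like, oligodendrocyte-like, astrocyte-like and other nuclei, in CPM on a log axis (vertical axis) for each gene (horizontal axis); points are the 3 mice summed, bars exact Poisson 95% intervals and open points 0 UMIs. P2ry12 is the gene with the highest level in the other clusters, near 100 CPM.

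Within the microglia-like nuclei at 48 h, the surface receptors, Tmem119 and C1qa were lower in both IFN-γ mice, and C1qb and the signalling proteins were closer. The nuclei of the IFN-γ mice include a group of 36 with Ccr2 that the saline mouse lacked. Values without that group are given below. Siglech had 1119 CPM in the saline mouse (95% Poisson interval 904 to 1370) and 567 (466 to 682) and 400 (323 to 490) in the IFN-γ mice. Cx3cr1 had 1310 (1076 to 1579), 495 (402 to 604) and 740 (634 to 860), and Tmem119 250 (155 to 382), 61.3 (31.7 to 107) and 73.2 (42.6 to 117). The intervals of the saline mouse lay apart from those of both IFN-γ mice in these 3 genes, and they cover counting error alone. They also lay apart in Csf1r and C1qa. Csf1r had 1036, 521 and 671 CPM, P2ry12 1262, 904 and 624 and C1qa 1322, 618 and 878. C1qb had 1036, 827 and 955 CPM, Dock8 1465, 1394 and 1300 and Inpp5d 2453, 2328 and 2027.

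With 1 saline mouse the spread in the test rests on the 2 IFN-γ mice. In edgeR Siglech had a log2 value of -1.23 ± 0.31 (SE, adjusted p = 0.00904), Tmem119 -1.90 ± 0.52 (adjusted p = 0.0224), Cx3cr1 -1.10 ± 0.30 (adjusted p = 0.0219), C1qa -0.84 ± 0.30 (adjusted p = 0.117), Csf1r -0.81 ± 0.31 (adjusted p = 0.148) and P2ry12 -0.74 ± 0.30 (adjusted p = 0.189). C1qb was at -0.23, Inpp5d at -0.19 and Dock8 at -0.14. A call needed a log2 change beyond 3 in the fit and in each IFN-γ mouse, and 0 of the 9 genes met it in edgeR or DESeq2, beside 0.783% of all genes in edgeR, although 6 of the 9 had an unadjusted p below 0.05 in edgeR, beside 16.3% of all genes. At a limit of 1 again 0 of 9 were called, beside 0.449% of all genes called lower, and for Siglech the first IFN-γ mouse missed the limit at -0.98. DESeq2 gave Siglech an adjusted p of 0.440.

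At a higher clustering resolution the 134 nuclei split into 98 (31, 36 and 31 per mouse) and 36 (13 and 23 from the IFN-γ mice, none from the saline mouse), and the smaller group had Ccr2, a chemokine receptor of monocytes, at 983 and 914 CPM, with 0 UMIs of Sall1 and 2 of Slco2b1, both microglial markers. In the 36 nuclei Siglech had 0 and 3 UMIs and Tmem119 2 and 0 UMIs in the 2 mice. P2ry12 had 246 and 217 CPM there, against 1098 and 870 CPM in the other IFN-γ nuclei. C1qb went the other way, with 1385 and 1245 CPM against 662 and 780. Csf1r had 492 and 697 CPM, near its 529 and 656 CPM in the other IFN-γ nuclei, and Dock8 1073 and 1302 against 1489 and 1298.

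Without those 36 nuclei the order of the genes changed. The edgeR log2 value of Siglech went from -1.23 to -0.76 (adjusted p = 0.120) and that of P2ry12 from -0.74 to -0.39, whereas C1qa had -1.04 (adjusted p = 0.00713) and Cx3cr1 -0.93 (adjusted p = 0.0255). Siglech then had 1119, 734 (604 to 884) and 622 (500 to 764) CPM and C1qa 1322, 509 and 808. Tmem119 had -1.48 (edgeR adjusted p = 0.108), Csf1r -0.84 (adjusted p = 0.0778), Dock8 -0.11 and Inpp5d -0.06. None was called at a limit of 1, beside 1.46% of all genes. The saline nuclei held 35 UMIs of Mrc1, a marker of border macrophages, in 12.9% of nuclei. All markers of border macrophages or monocytes summed to 79 UMIs in the saline mouse. They summed to 0 and 8 UMIs in the larger subcluster of the IFN-γ mice. The makeup of the nuclei thus differed in this comparison too, and its part was not tested.

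**Figure D4:**
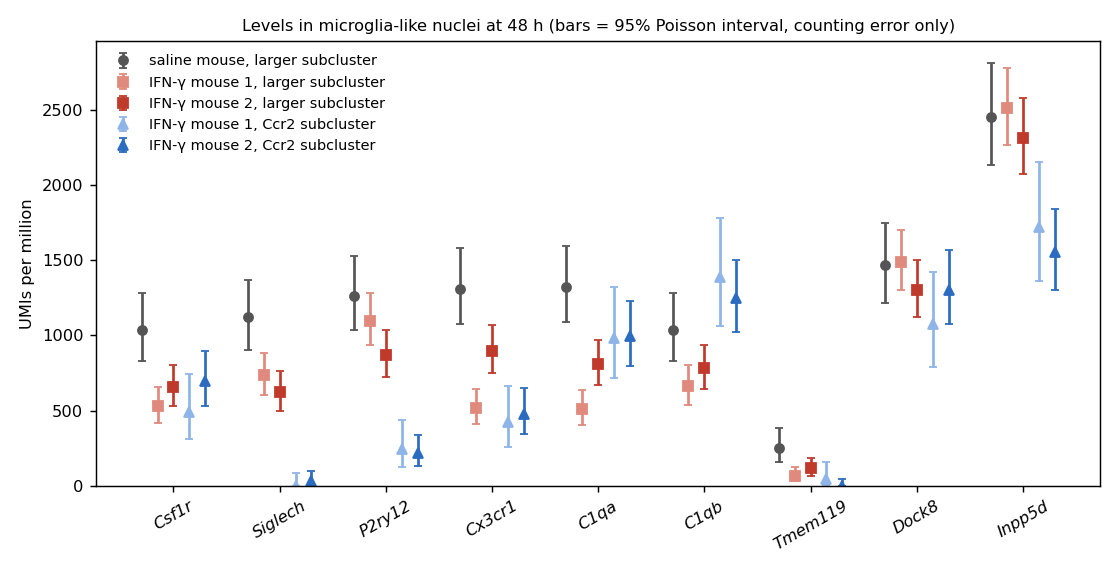
Levels of the 9 genes (CPM, vertical axis) in the larger microglia-like subcluster of the 3 mice and in the Ccr2 subcluster of the 2 IFN-γ mice; points are mice and bars exact Poisson 95% intervals. Siglech and Tmem119 are near 0 in the Ccr2 subcluster (0 and 3, and 2 and 0 UMIs), whereas C1qb is higher there than in the larger subcluster.

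The share of nuclei with a UMI was lower in both IFN-γ mice for Siglech and, after thinning, for Csf1r, P2ry12, Cx3cr1, C1qa and Tmem119. For Cx3cr1 the thinned share was 90.0% in the saline mouse and 40.4% and 46.2% in the IFN-γ mice. The shares of Dock8 and Inpp5d were high in every mouse and did not follow the order of their levels. Siglech was found in 80.6% of saline microglia-like nuclei and in 61.2% and 44.4% of those of the IFN-γ mice. After thinning to 1500 UMIs these shares were 76.7%, 46.8% and 36.5%. They include the Ccr2 subcluster, which only the IFN-γ mice had. In the larger subcluster alone the thinned shares of Siglech were 70.0%, 52.9% and 53.3%. Over all microglia-like nuclei thinning left out 1, 2 and 2 shallower ones of the 3 mice. In thinned oligodendrocyte-like nuclei, which should lack the gene, the shares were 0%, 0% and 0.331%. Dock8 was found in 96.8%, 91.8% and 92.6%, or 83.3%, 85.1% and 86.5% after thinning, and Inpp5d in 93.5%, 100% and 96.3%, or 93.3%, 93.6% and 90.4%. Of the 41 other microglial genes, 40 were tested in these nuclei, with a median of -0.42 beside 0.10 over all genes. None was called at a limit of 3, and at a limit of 1 Fcrls (-2.58) and Gpr34 (-1.55) fell. Of the response genes called at a limit of 3, the antigen presentation genes Cd74 (11.73), H2-Aa (10.65), H2-Ab1 (10.34) and H2-Eb1 (10.23) led. Top2a was called among the division genes (8.02). Each IFN-γ mouse against the saline mouse, with a small value added to every count, gave lower values. These were 7.94 and 9.17 for Cd74, 6.34 and 7.72 for H2-Eb1 and 5.41 and 4.48 for Top2a. The size of these changes thus depended on how it was computed, with 1 saline mouse, and is not a measured fold. Without the Ccr2 subcluster the fitted values were 9.28 for Cd74, 8.00 for H2-Aa, 7.24 for H2-Ab1, 7.56 for H2-Eb1 and 8.09 for Top2a.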

How the data were processed

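The authors deposited counts of UMIs, for each gene and well of the plate and for each gene and single nucleus. Per the labels and the study's methods, the authors aligned reads with STAR to GRCm38, corrected barcodes by a single base, collapsed reads of a UMI and gene to a count, and counted introns in nuclei. Low-quality nuclei and doublets had been removed, and no doublet caller was run here. Aligner versions and strand settings were not given in the sources used here. Neither table was normalized. NeuN- wells (20962 to 301445 counts) are shallower than NeuN+ wells, and intervals cover counting error only. The authors' test results were not used.

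Bulk wells were compared in R 4.3.3 with edgeR 4.0.16 (limma 3.58.1): TMM scaling, the quasi-likelihood F test and Benjamini-Hochberg adjustment over all genes tested. A call needed a log2 change beyond 1 (0.5 between fractions) and an adjusted p below 0.01. The planned fit used filterByExpr. Since that filter left 0 to 4 of the 9 genes per comparison in NeuN- wells, single genes are given from the same fit without it, and interactions, time and fraction differences from the filtered fit. Alternatives were RLE scaling, DESeq2 1.42.0, saline wells of all times, 1 fit of 84 wells, library sizes from 41 microglial genes, and each well left out. Controls matched on Y-linked genes (saline of 48 h for 6 h and of 72 h for 24 h, with and without the filter), and the 41-gene scaling and left-out wells without a filter, were added after seeing the data.

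Nuclei were clustered in Python 3.11.15 with scikit-learn 1.9.0 and leidenalg 0.10.2, on 30 principal components of 2000 variable genes (the 9 members left out) with 15 neighbours, at Leiden resolution 1, and again at 0.5 and 2. UMIs were summed per mouse and tested in edgeR over genes of at least 10 UMIs. Intervals are exact at 95%. Shares were also computed after thinning to 1500 UMIs, which left out shallower nuclei. Likeness used log2(CPM + 1) over genes with a mean of at least 10 counts per NeuN- well. Results of some listed genes are not reported here. The scripts were tested on simulated data. The text names the 9 members, at most 4 called genes of each other list per comparison by size of change, and the 5 genes most like the members. Arhgap15 at 6 h, Med12l, Mbp, Ccr2, Sall1, Slco2b1, Mrc1 and the sex-linked genes were named after their values were seen. Members and lists were chosen with earlier results of these data known. Promoters came from RefSeq, and gene positions from a Gencode annotation of GRCm38 later than the authors' own.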

Additional observations from a re-analysis of the deposited data

Results flagged for a closer look

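In 7 of 72 groups of wells a single well stood apart by Dixon's test at 95%, which chance gives in about 1 of 20 groups. In NeuN- wells these were Siglech in saline at 72 h (highest 109 CPM), Cx3cr1 in saline at 6 h (highest 80.0 CPM) and at 48 h (lowest 12.5 CPM), and Inpp5d in saline at 24 h (highest 202 CPM). In NeuN+ wells these were P2ry12 with IFN-γ at 48 h (lowest 17.4 CPM), Dock8 in saline at 48 h (highest 12.3 CPM) and Dock8 with IFN-γ at 24 h (lowest 1.76 CPM).

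The effect of IFN-γ differed between NeuN- and NeuN+ wells, by a tested interaction, for Siglech (-6.16) and Dock8 (-2.75) at 6 h and for Siglech (-2.86) and Cx3cr1 (-1.64) at 24 h, all as log2 values in edgeR. Between 6 h and later times in NeuN- wells it differed for Siglech by -3.44 (24 h), -3.84 (48 h) and -5.22 (72 h), for Dock8 by -3.02, -3.59 and -4.01, and for Inpp5d by -2.87 (72 h). As given above, the interactions of Siglech and Dock8 at 6 h and of Cx3cr1 at 24 h were lost in some other fits. So was the difference of Siglech between 6 and 24 h.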

How the results depend on the processing

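No paired analysis was possible because the labels give wells and mice no replicate numbers. Counts below are members called, and a change of sign within 1 SE of an uncalled value counts as the same direction. The share of all genes called, either way, stands in brackets, and counts read against it. For IFN-γ in NeuN- wells at 6 h the filtered fit called 0 because the filter left no member to test (11.7%). DESeq2 called 2 (1.89%), the fit without a filter 2 (2.38%), saline wells of all times 3 (11.6%) and 1 fit of 84 wells 3 (5.77%). Saline of 48 h gave 2 (15.2%), or 5 without a filter (3.07%), and the 41-gene scaling without a filter 2 (5.45%). At 24 h the filtered fit again had no member to test and called 0 (14.6%). The 1 fit of 84 wells called 1 (8.46%), as did, without a filter, the 41-gene scaling (3.34%) and saline of 72 h (3.08%). At 72 h the filtered fit called 1 (1.13%). DESeq2 (0.145%), saline of all times (0.732%), 1 fit of 84 wells (0.556%) and the 41-gene scaling with (14.7%) or without (2.77%) the filter called 0. Without the filter, interactions called 1 (0.465%) and not 2 (2.53%) at 6 h, 1 (1.27%) and not 2 (4.22%) at 24 h, and 1 (0.0811%) and not 0 (0.128%) at 48 h. With saline of 72 h the interaction at 24 h called 1 (4.11%), and DESeq2 called 2 at 6 h (0.575%), of which 1 was called by edgeR. The difference between 6 and 24 h called 2 (6.15%), and 1 with DESeq2 (0.801%), without the filter (0.822%) and with the 41-gene scaling (29.0%), the lost gene being Siglech. Between fractions every member tested was called, 5 in the filtered fit (59.4%) and 9 with DESeq2 (24.0%) or without the filter (25.6%). With all 84 wells and treatment as a covariate 3 were tested and called (56.7%). Of the 5 genes most like the members 0 stayed with saline wells alone. With each well left out, filtered fits called 0 to 1 at 6 and 72 h and 0 to 0 at 24 and 48 h in NeuN- wells. At 24 h no member passed the filter in them, and at 6 h Dock8 alone did, in 1 of 10 fits, which called it. Without the filter Siglech and Dock8 were called at 6 h in 10 of 10 fits and Inpp5d in 2. Calls ranged from 0 to 0 in NeuN+ wells, and for interactions from 0 to 2 and 1 to 2 at 6 and 24 h and 0 to 0 later. They ranged from 1 to 2, 2 to 2 and 3 to 3 between times and 0 to 0 in nuclei. Between fractions they ranged from 3 to 5, with every member tested called.

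Signs turned in NeuN- wells at 72 h with the 41-gene scaling (Csf1r -0.05, Siglech -0.43, P2ry12 -0.61, Cx3cr1 -0.55, Dock8 -0.35, the same with or without the filter where both were tested) and for P2ry12 between 6 h and 24, 48 or 72 h (0.15, 0.44 and 0.26), with all-gene medians of 0.92, 0.58 and 1.25 there. They also turned in NeuN+ wells for Cx3cr1 at 6 h (0.44, or 0.46 without the filter, saline of 48 h) and 72 h (0.15, saline of all times), P2ry12 at 24 h (-0.25, saline of 72 h) and Tmem119 at 6 h (-0.38, DESeq2), for Csf1r in the interaction at 72 h (-0.35 to 1.08 with a well left out, lowest without saline replicate 6), Tmem119 between 6 and 24 h (0.68, DESeq2) and Dock8 in nuclei (0.01, genes of at least 1 UMI). With saline of 72 h they turned at 24 h for C1qa (-1.14) and Inpp5d (0.59) in NeuN- wells and for Csf1r in the interaction (1.04). The cause was not tested. Of the single-member values 1860 stayed on their side, 15 passed the limits newly, 46 no longer did and 23 turned.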
